A study of Mus musculus with 10 samples.

Results

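Immediate early genes are genes whose transcripts rise within minutes of a stimulus, without new protein synthesis, and are then quickly destroyed. Growth factors, stretch, loss of blood flow and the handling of tissue at collection all raise them through MAP kinases and the transcription factors SRF and CREB. In the heart they are known as an early response to pressure, ischaemia and adrenergic drive, and most encode transcription factors or brakes on the same signals. The set described here was chosen by symbol and holds Fos, Fosb, Jun, Junb, Jund, Egr1, Atf3, Ier2, Dusp1 and Zfp36. Of these 10 genes, 9 were rows of the table of 11790 genes, and all 9 reached a mean of 1 FPKM (a count of fragments divided by the gene's length and the library's depth) and were tested. Fosb was not analysed here.

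RNA was sequenced from 5 hearts of A-PDK1KO mice and 5 hearts of control mice. The A-PDK1KO mice lack 3-phosphoinositide-dependent kinase 1 (PDK1, gene Pdpk1) in adipocytes, and the control mice carry the floxed PDK1 allele (PDK1 flox/flox). All mice were 10 to 11 weeks old and were killed in the randomly fed state, and the hearts were snap frozen. No source used here gives the driver of the deletion or the interval between death and freezing, and the part of tissue collection in the values below was not tested. The labels number the hearts within a genotype and also give each heart a number of its own across both genotypes, whose meaning is not stated. They do not state that each heart is from a separate mouse, so p-values measure the spread between these samples.

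The libraries held 9249255 to 11384423 counted reads. Pdpk1, whose deletion in adipocytes heart RNA does not test, lay between 2.73 and 4.04 FPKM in A-PDK1KO hearts and between 3.14 and 3.77 FPKM in control hearts. Markers of ventricular cardiomyocytes summed to 14761 to 16653 FPKM in A-PDK1KO hearts and 15586 to 18332 FPKM in control hearts, with all 9 in the table. All 10 endothelial markers summed to 239 to 321 FPKM in A-PDK1KO hearts and 248 to 279 in control hearts, and all 8 fibroblast markers to 421 to 542 in A-PDK1KO hearts and 419 to 495 in control hearts. All 8 mural markers summed to 151 to 188 FPKM in A-PDK1KO hearts and 151 to 228 in control hearts, and 8 of 9 macrophage markers to 126 to 173 in A-PDK1KO hearts and 146 to 179.6 in control hearts. Atrial markers (4 of 5 in the table) summed to 184 to 268 FPKM in A-PDK1KO hearts and 214 to 579 in control hearts. Myl7, one of these markers, lay at 0 to 47.6 FPKM in A-PDK1KO hearts and 0 to 85.9 FPKM in control hearts. Control replicate 1, with Myl7 at 0, had an atrial sum of 487 FPKM, and A-PDK1KO replicate 5, with Myl7 at 47.6 FPKM, had 219 FPKM. The atrial sum thus did not follow Myl7. Erythroid markers (5 of 5) summed to 68.6 to 228 FPKM in A-PDK1KO hearts and 27.9 to 1391 in control hearts. Only 3 of 5 neutrophil markers, 1 of 7 adipocyte markers, 1 of 5 Schwann cell markers and 0 of 8 lymphocyte markers were in the table, at sums of at most 3.79 FPKM in any heart, the highest being that of neutrophil markers in A-PDK1KO replicate 2. In whole tissue, fewer cells of a type and less RNA per cell cannot be told apart.

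The promoter windows that held a half-site of the CRE, the element CREB binds, are shown first, because CREB and SRF sites are known entry points of the signals. Promoter windows run from 250 bases before to 50 bases after the annotated start and are taken from RefSeq on GRCm38.p6. Of the 9 genes, 7 had a window, and Egr1 and Ier2 had none here. Capitals mark the CRE half-site TGACG, searched on both strands (CGTCA is the same site on the other strand), and the TATA box TATAAA, searched on the gene's strand.
Fos (chr12:85473640-85473939, plus strand): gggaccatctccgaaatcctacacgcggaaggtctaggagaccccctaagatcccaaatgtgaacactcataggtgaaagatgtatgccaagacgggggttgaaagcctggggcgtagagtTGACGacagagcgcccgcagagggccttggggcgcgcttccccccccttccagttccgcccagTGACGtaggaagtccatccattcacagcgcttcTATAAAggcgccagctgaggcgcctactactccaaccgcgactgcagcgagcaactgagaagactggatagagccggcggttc
Junb (chr8:84978699-84978998, minus strand): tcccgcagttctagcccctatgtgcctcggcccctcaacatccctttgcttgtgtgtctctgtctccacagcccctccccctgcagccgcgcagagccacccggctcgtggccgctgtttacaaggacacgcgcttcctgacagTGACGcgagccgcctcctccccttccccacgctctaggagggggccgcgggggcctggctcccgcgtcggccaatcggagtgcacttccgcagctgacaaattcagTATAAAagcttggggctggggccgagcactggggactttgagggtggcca
Dusp1 (chr17:26508423-26508722, minus strand): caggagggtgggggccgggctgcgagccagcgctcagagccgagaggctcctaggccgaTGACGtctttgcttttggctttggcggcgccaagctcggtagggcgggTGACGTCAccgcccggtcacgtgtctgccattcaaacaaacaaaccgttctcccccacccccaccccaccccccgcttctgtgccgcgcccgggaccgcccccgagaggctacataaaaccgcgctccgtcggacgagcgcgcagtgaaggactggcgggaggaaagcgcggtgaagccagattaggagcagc
Atf3 (chr1:191183284-191183583, minus strand): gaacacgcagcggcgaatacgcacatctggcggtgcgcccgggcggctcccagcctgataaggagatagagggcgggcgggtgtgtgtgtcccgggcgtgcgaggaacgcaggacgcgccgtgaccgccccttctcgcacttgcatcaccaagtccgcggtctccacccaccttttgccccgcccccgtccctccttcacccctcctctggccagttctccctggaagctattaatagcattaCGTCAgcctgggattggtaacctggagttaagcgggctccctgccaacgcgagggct
The half-site was in 4 of the 7 windows (Fos, Junb, Dusp1 and Atf3), against 20.8% of all 32851 windows. The full CRE TGACGTCA, which contains the half-site, was in the Dusp1 window and in 1.79% of all windows. Fos and Junb held TATAAA, at 33 bases before the start in Fos and at the RefSeq start itself in Junb, against 8.32% of all windows. The outermost Junb start in GENCODE release M21 (chr8:84978718) lies farther downstream in the same window, so the TATAAA is upstream of it. The CArG box, the site of SRF, was in the Zfp36 window alone, at 58 bases before the start, against 1.63% of all windows. Bases farther than 250 before the start were not searched, nor were Egr1 and Ier2. The windows thus do not show that the other members lack an SRF site. An EGR site, GCGNGGGCG, was also in the Zfp36 window (5.55% of all windows), and no member window held the AP-1 site TGANTCA (7.81% of all windows). The windows of Atf3, Dusp1, Zfp36 and Jund do not cover the outermost gene start in GENCODE release M21, which differs from the RefSeq start.

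The transcripts carry a second known feature, AU-rich sites in the 3′ UTR that Zfp36 (tristetraprolin) binds to speed decay. The 3′ UTR sequences are from GENCODE release M21 (GRCm38), using the longest annotated one for each gene. The site TATTTAT, on the transcript strand, was in 6 of 9 members, against 29.2% of 9906 genes of the table with a 3′ UTR. Dusp1 and Zfp36 had 3 sites each, Fos had 2, Jun, Jund and Atf3 had 1 each, and Egr1, Junb and Ier2 had 0. Per kilobase of 3′ UTR this was 1.43 sites over the members and 0.279 over those genes. One site from each of 4 members is shown in capitals, with its flanks, as the element through which one member can act on others.
Fos (chr12:85477103-85477132, plus strand): tgttttcaattTATTTATtaagatggattc
Dusp1 (chr17:26506158-26506187, minus strand): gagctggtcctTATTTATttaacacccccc
Zfp36 (chr7:28376965-28376994, minus strand): agtgggcccttTATTTATgacgactttatt
Atf3 (chr1:191170337-191170366, minus strand): aaaatattactTATTTATcccagtattcct

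None of the 9 immediate early genes passed the test between the genotypes (limma, below), where 2.08% of all 9987 genes tested did. Each of the 9 overlapped between the genotypes, and only 4.96% of all genes did not. A-PDK1KO replicates 1 and 2 had more Fos and Egr1 transcript than any other heart, while the other 3 A-PDK1KO hearts lay within the control range or, for Fos in replicate 3, below it. Junb and Ier2 were also highest in these 2 hearts, and Atf3 and Jund were lowest there. Jun had the smallest adjusted p of the set and did not pass.

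**Figure D1:**
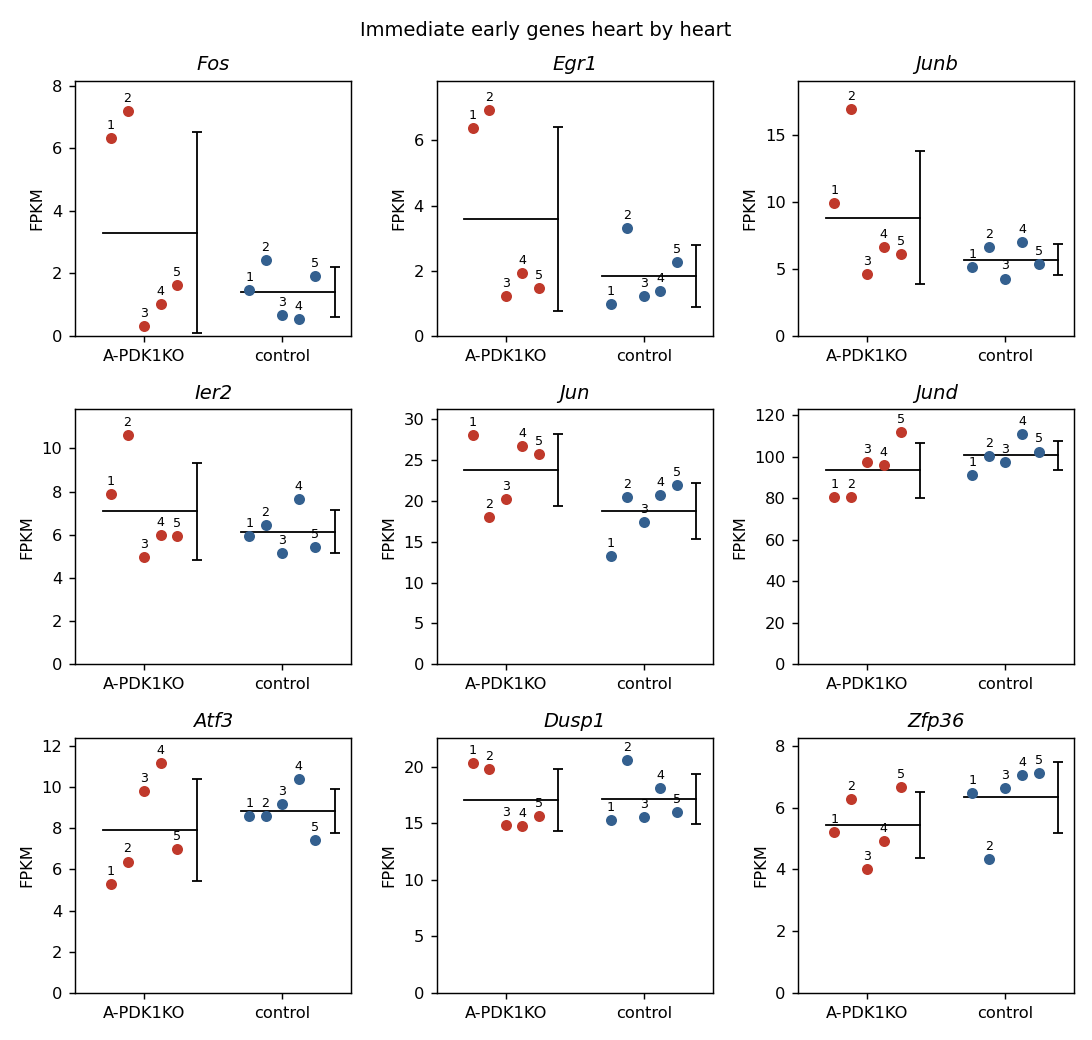
FPKM of each of the 9 immediate early genes (vertical axes, from 0) in 5 A-PDK1KO hearts (red, left) and 5 control hearts (blue, right). Numbers are replicates, the horizontal line is the group mean and the bar its SD. Replicates 1 and 2 of A-PDK1KO stand above all other hearts for Fos, Egr1, Junb and Ier2 and below all others for Jund and Atf3.

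Fos encodes a basic leucine zipper protein that pairs with Jun proteins to form AP-1, and is located at chr12:85473890-85477273 (mm10, plus strand). It had 6.34, 7.20, 0.308, 1.01 and 1.64 FPKM in A-PDK1KO replicates 1 to 5, against 1.47, 2.43, 0.678, 0.528 and 1.90 FPKM in control replicates 1 to 5. The 2 highest values and the lowest value of all 10 hearts were in the A-PDK1KO group, so the control range lay inside the A-PDK1KO range. These values rest on 8 to 165 reads in A-PDK1KO hearts and 12 to 58 reads in control hearts. The 8 reads of A-PDK1KO replicate 3 give an exact 95% Poisson interval of 0.133 to 0.607 FPKM, and the 143 reads of replicate 1 one of 5.34 to 7.47 FPKM, which cover counting error only. The means were 3.30 ± 3.22 FPKM in A-PDK1KO hearts and 1.40 ± 0.807 FPKM in control hearts (SD, n = 5 each).

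Egr1, a zinc finger transcription factor induced through SRF, is located on chromosome 18 (34859823 to 34864984, mm10). It had 6.37, 6.93, 1.21, 1.94 and 1.49 FPKM in A-PDK1KO replicates 1 to 5, against 0.989, 3.32, 1.23, 1.38 and 2.27 FPKM in control replicates 1 to 5. The same 2 A-PDK1KO hearts were highest, and the other 3 lay inside the control range. Control replicate 2 came next after them, as it did for Fos.

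Junb encodes an AP-1 protein that can oppose Jun. It had 9.91, 17.0, 4.60, 6.60 and 6.08 FPKM in A-PDK1KO replicates 1 to 5, against 5.14, 6.65, 4.29, 7.03 and 5.37 FPKM in control replicates 1 to 5. Ier2, a short nuclear protein of the immediate early response, had 7.87, 10.6, 4.99, 5.99 and 5.96 FPKM in A-PDK1KO replicates 1 to 5, against 5.96, 6.47, 5.16, 7.67 and 5.45 FPKM in control replicates 1 to 5. In both genes replicate 2 of A-PDK1KO was highest, replicate 1 was second and the remaining A-PDK1KO hearts lay among the control hearts, save replicate 3 for Ier2, which was lowest. Both genes lie on chromosome 8, with starts 316 kb apart. Reads could not be recovered as whole numbers for these 2 genes. The end of Junb overlaps Prdx2 on the other strand, and no source used here gives the strand setting of the counting.

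Jun encodes the main partner of Fos in AP-1. It had 28.0, 18.0, 20.2, 26.7 and 25.7 FPKM in A-PDK1KO replicates 1 to 5, against 13.3, 20.4, 17.4, 20.7 and 21.9 FPKM in control replicates 1 to 5. Replicates 1, 4 and 5 of A-PDK1KO lay above all control hearts, and replicates 2 and 3 among them. Replicate 2, highest for Fos, Egr1, Junb and Ier2, thus had the least Jun of its group.

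Jund, the AP-1 protein with a steady level in most tissues, was the most abundant member. It had 80.7, 80.9, 97.5, 96.1 and 112 FPKM in A-PDK1KO replicates 1 to 5, against 91.5, 100.5, 97.7, 111 and 103 FPKM in control replicates 1 to 5. Replicates 1 and 2 of A-PDK1KO were the 2 lowest of all hearts. Atf3, a stress-induced factor of the ATF and CREB family that represses many targets, had 5.28, 6.38, 9.79, 11.2 and 6.99 FPKM in A-PDK1KO replicates 1 to 5, against 8.58, 8.61, 9.18, 10.4 and 7.41 FPKM in control replicates 1 to 5. The same 2 hearts were lowest, and the highest value was also in the A-PDK1KO group, in replicate 4. Atf3 was thus low where Fos was high.

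The other 2 members encode feedback proteins. Dusp1, a phosphatase that switches off MAP kinases, lay at 14.8 to 20.3 FPKM in A-PDK1KO hearts and at 15.3 to 20.6 FPKM in control hearts. Its 3 highest hearts were control replicate 2 and A-PDK1KO replicates 1 and 2. Zfp36 lay at 4.02 to 6.68 FPKM in A-PDK1KO hearts and 4.35 to 7.13 FPKM in control hearts. Zfp36 overlaps the antisense gene Gm44710, Jund overlaps Gm11175, Jun overlaps Junos and Dusp1 overlaps Ergic1, and without the strand setting reads of such pairs cannot be told apart.

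Read by heart, A-PDK1KO replicate 2 was the highest of the 10 hearts for 4 of the 9 genes, and replicate 1 was among the 2 highest for 6. Replicate 3 of A-PDK1KO was among the 2 lowest for 6. For 4 of 9 members the 2 highest hearts were A-PDK1KO replicates 1 and 2, against 2.87% of all 9987 genes tested. These 2 hearts were singled out after their values were seen. Mitochondrially encoded reads took 41.5% of the counted reads in replicate 1 and 34.3% in replicate 2, against 32.7% to 40.4% in control hearts, and 9758 and 10723 genes reached 1 FPKM, against 9671 to 10214 in control hearts. Replicate 2 held the most genes at that level, and the part of this in its values was not tested.

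**Figure D2:**
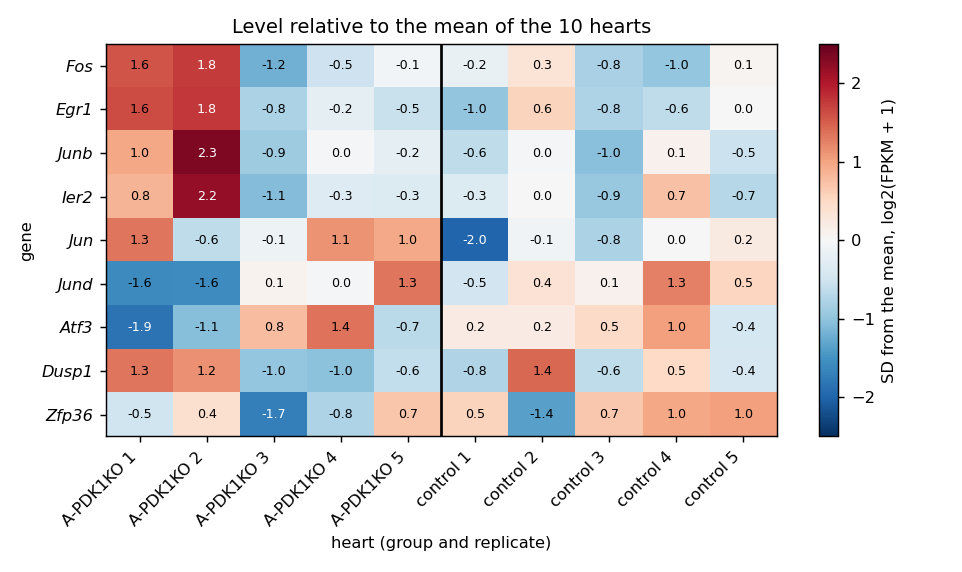
Level of each gene in each heart as its distance from the gene's mean over the 10 hearts, in SD of log2(FPKM + 1), with A-PDK1KO hearts left of the line and control hearts right of it. Red is higher and blue is lower. The first 2 columns are red for Fos, Egr1, Junb, Ier2 and Dusp1 and blue for Jund and Atf3.

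The spread between hearts of one genotype set the limit on any comparison. The residual SD of Fos, the spread left on the log2(FPKM + 1) scale after the group means are removed, was 0.90, which ranked 57 of 9987 genes tested from the most variable. That of Egr1 was 0.71 (rank 94), and that of Junb was 0.49 (rank 245). The median over all genes tested was 0.16. Jund, at 0.16, lay at percentile 50.8, and the other 8 members lay at percentile 69.7 (Dusp1) to 99.4 (Fos). The SD of FPKM was larger in A-PDK1KO hearts than in control hearts for 8 of 9 members, against 51.8% of all genes tested, and Zfp36 was the exception. The members in this count are not independent. A-PDK1KO replicates 1 and 2 were the highest hearts for Fos, Egr1, Junb and Ier2 and the lowest for Jund and Atf3.

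**Figure D3:**
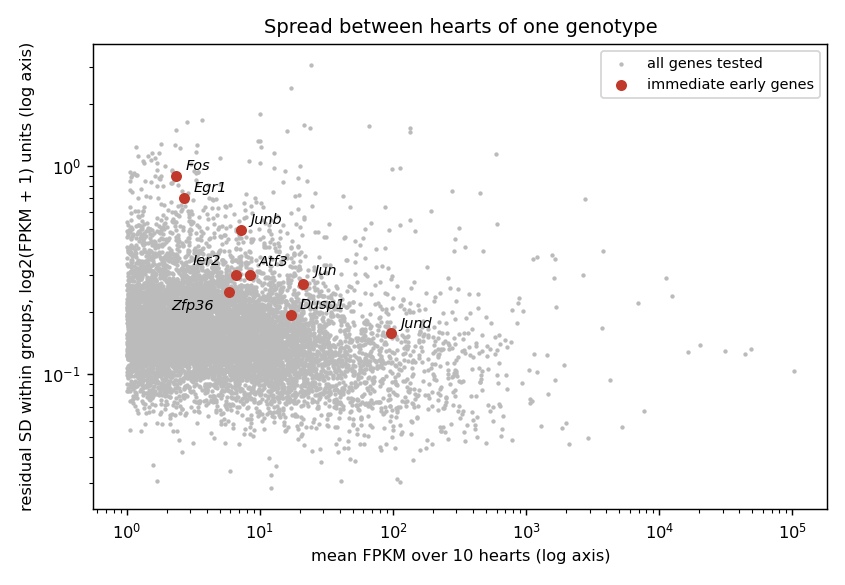
Residual SD within groups on the log2(FPKM + 1) scale (vertical, log axis) against the mean FPKM over 10 hearts (horizontal, log axis) for all genes tested (grey) and the 9 immediate early genes (red). Fos and Egr1 lie near the upper edge of the cloud at their level, and Jund lies in its middle.

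A-PDK1KO hearts were then compared with control hearts by limma on log2(FPKM + 1), with p-values adjusted by the Benjamini-Hochberg method over all 9987 genes and a call at an adjusted p under 0.05. Of the 9 members 0 were called, against 2.08% of all genes tested (1.21% higher and 0.871% lower). At an unadjusted p under 0.05 there was 1 (Jun), against 15.6% of all genes, and limma voom on recovered reads also called 0. For Junb and Ier2, whose reads were not recovered as whole numbers, voom used rounded values. In 0 of 9 members did all A-PDK1KO hearts lie on one side of all control hearts, against 4.96% of all genes. Over all genes there were 208 calls, 121 higher and 87 lower. With scaling that leaves out mitochondrially encoded and haemoglobin genes the split was 323 higher and 67 lower, and the members called were still 0.

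The change of Fos on the log2 scale was 0.55 ± 0.46 (SE, n = 5 per group, adjusted p = 0.632 by limma), with means in a ratio of 2.35. Egr1 had one of 0.53 ± 0.36 (adjusted p = 0.536) and Junb one of 0.44 ± 0.26 (adjusted p = 0.446). Without A-PDK1KO replicates 1 and 2 the log2 fold change was -0.26 ± 0.29 for Fos, -0.11 ± 0.23 for Egr1, 0.019 ± 0.15 for Junb and -0.097 ± 0.12 for Ier2, whose value with all hearts was 0.15 ± 0.16. Those 2 hearts were left out after their values were seen, as the 2 highest for these genes, so a lower value had to follow. For Fos, Egr1 and Ier2 the value without them lay below 0 by less than its SE. With only replicate 1 or only replicate 2 left out, the log2 fold change of Fos was 0.26 and 0.22.

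Jun averaged 23.7 ± 4.37 FPKM in A-PDK1KO hearts and 18.7 ± 3.47 FPKM in control hearts (SD, n = 5 each), a log2 change of 0.33 ± 0.15 (SE, adjusted p = 0.308 by limma). It stayed between 0.21 and 0.42 under all 21 other settings, and its adjusted p was between 0.158 and 0.491. Jund and Atf3 had log2 fold changes of -0.11 ± 0.09 and -0.18 ± 0.16, and of 0.017 and 0.055 without replicates 1 and 2 of A-PDK1KO. Dusp1 was at -0.0095 ± 0.11 and Zfp36 at -0.19 ± 0.14, which remained below 0 under all 21 settings, at an adjusted p of 0.279 to 0.788. The median log2 fold change over the 9 members was 0.15, with 5 above 0, against 0.016 over all genes tested.

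**Figure D4:**
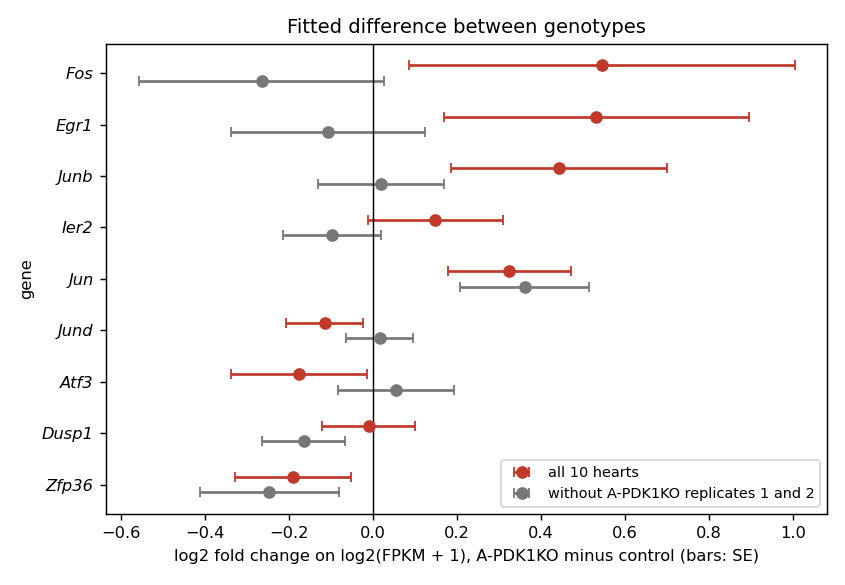
Log2 fold change, A-PDK1KO minus control, on the log2(FPKM + 1) scale with its SE, for all 10 hearts (red) and without A-PDK1KO replicates 1 and 2 (grey). Without them Fos, Egr1, Ier2, Jund and Atf3 move to the other side of 0, and Jun, at 0.33 with all hearts, is at 0.36. These 2 hearts were chosen after their values were seen.

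Levels of the other 8 genes were set against Fos over the 10 hearts (8 relations, values on log2(FPKM + 1), permutation tests, two-sided, adjusted by Benjamini-Hochberg over the 8). Egr1 followed Fos most closely, with r = 0.93 (permutation p = 0.00080, adjusted p = 0.00528) and rho = 0.84 (permutation p = 0.00367, adjusted p = 0.0232). Junb had r = 0.83 (permutation p = 0.0037, adjusted p = 0.00987) and rho = 0.64 (permutation p = 0.0553, adjusted p = 0.0982). Atf3 ran the other way, with r = -0.86 (permutation p = 0.00132, adjusted p = 0.00528) and rho = -0.82 (permutation p = 0.00581, adjusted p = 0.0232). Ier2, Dusp1 and Jund had r of 0.75, 0.72 and -0.72 (permutation, adjusted p = 0.0263 each). Their rho was 0.62, 0.70 and -0.36 (permutation, adjusted p = 0.0982, 0.0819 and 0.417). By rho only Egr1 and Atf3 passed. Jun and Zfp36 had r of 0.17 and 0.044 (permutation p = 0.645 and 0.905).

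The 2 hearts farthest from the median of Fos were A-PDK1KO replicates 1 and 2. Without them r was 0.66 for Egr1 and -0.65 for Atf3 (exact permutation p = 0.0700 and 0.0821, n = 8), 0.33 for Junb, 0.42 for Dusp1, 0.14 for Ier2 and 0.040 for Jund. Of the 8 relations 0 passed among the remaining 8 hearts. Leaving out the extremes of Fos narrows its range and lowers the number of hearts, so weaker relations could follow from that alone. The setting therefore cannot decide whether a relation rests on those 2 hearts. Centred on the group means, r was 0.92 for Egr1 and -0.84 for Atf3. Correlations within a genotype, with 5 hearts each, were not computed.

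**Figure D5:**
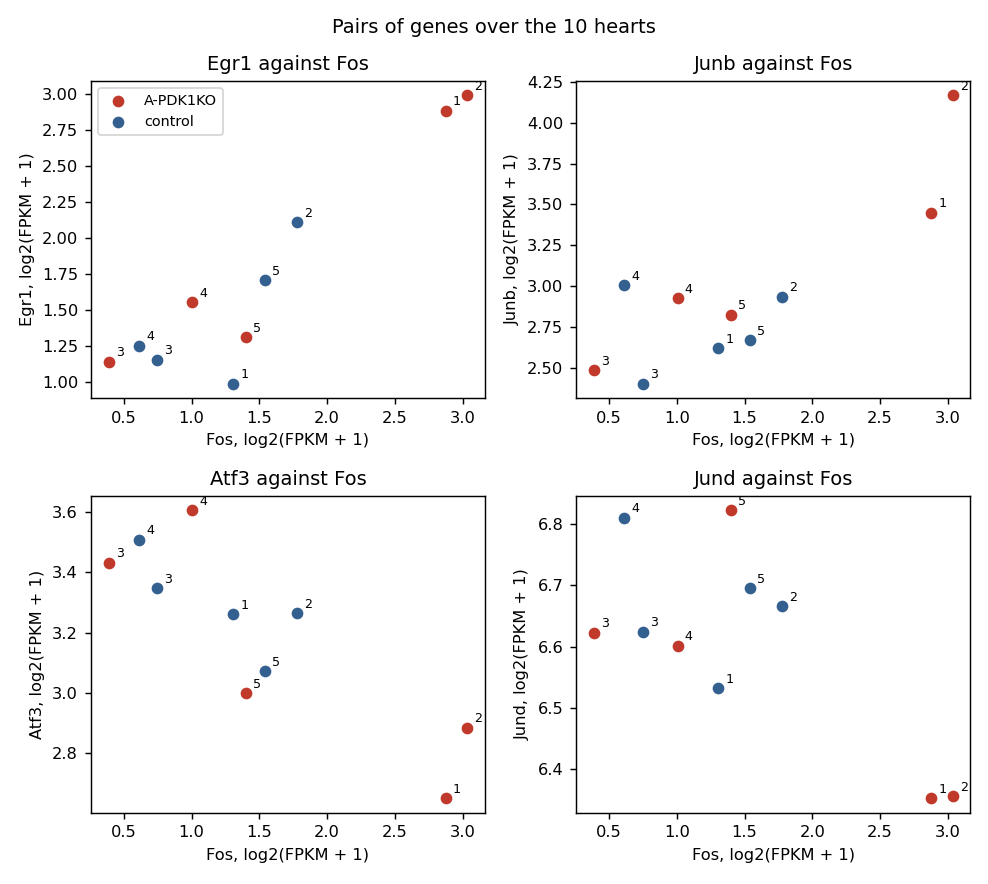
Egr1, Junb, Atf3 and Jund against Fos over the 10 hearts, all on log2(FPKM + 1), with A-PDK1KO hearts in red, control hearts in blue and replicate numbers beside the points. Replicates 1 and 2 of A-PDK1KO lie apart at the right of each panel, and among the other 8 hearts r is 0.66 for Egr1 and -0.65 for Atf3, neither of which passed.

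Of 53 further immediate early genes listed, 43 were in the table and tested. Of these, 2 were higher in A-PDK1KO hearts and 0 lower (limma), against 121 higher and 87 lower of all 9987 genes, 19 had a log2 fold change above 0, and the median was -0.067. Before adjustment, 5 were higher and 6 lower at p under 0.05, against 852 higher and 702 lower of all 9987 genes. Hbegf, a growth factor of the EGF family, had 7.57, 8.28, 9.92, 5.85 and 8.11 FPKM in A-PDK1KO replicates 1 to 5, against 4.83, 5.04, 4.99, 4.45 and 4.27 FPKM in control replicates 1 to 5. The groups did not overlap, and the log2 fold change was 0.63 ± 0.11 (SE, limma adjusted p = 0.0147). The call held in all 10 fits that left out 1 heart and was lost without A-PDK1KO replicates 1 and 2 together (adjusted p = 0.0780, log2 fold change 0.62).

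Ccn1 (formerly Cyr61), a matricellular protein induced by SRF and YAP, had 48.0, 35.0, 33.6, 28.3 and 31.1 FPKM in A-PDK1KO replicates 1 to 5, against 18.4, 26.4, 22.8, 22.5 and 24.5 FPKM in control replicates 1 to 5. Its log2 fold change was 0.58 ± 0.13 (SE, limma adjusted p = 0.0403). The call was lost in 8 of 10 fits that left out 1 heart, with an adjusted p of up to 0.0921 without control replicate 3, and with median-of-ratios (0.0778), quantile (0.0506) and TPM scaling (0.0551), and the log2 fold change was 0.43 to 0.66 over the settings. Both genes were high across the A-PDK1KO hearts, including replicate 3, in which Fos was lowest.

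Nr4a1, Per1, Btg2, Zfp36l1, Plk2, Klf2, Trib1 and Ier5 of the same list are named here after their values were seen. Klf2 was lower in A-PDK1KO hearts, at 22.3 to 35.5 FPKM against 36.6 to 46.3 FPKM in control hearts (limma adjusted p = 0.0939). With Hbegf and Ccn1 it made up the 3 of 43 genes whose groups did not overlap, against 4.96% of all genes tested. Trib1 and Ier5 were also lower (limma adjusted p = 0.105 and 0.135). Nr4a1, an orphan nuclear receptor induced by CREB, had 12.7, 8.30, 9.44, 21.0 and 17.8 FPKM in A-PDK1KO replicates 1 to 5, against 9.49, 2.42, 7.54, 11.0 and 5.16 FPKM in control replicates 1 to 5 (limma adjusted p = 0.188). It was highest in A-PDK1KO replicates 4 and 5, and lowest in control replicate 2, the control heart with the most Fos. Per1, a clock gene that CREB also induces, had 2.26, 1.60, 4.05, 6.88 and 5.18 FPKM in A-PDK1KO replicates 1 to 5, against 5.26, 1.54, 5.68, 8.65 and 3.53 FPKM in control replicates 1 to 5 (adjusted p = 0.821). The 3 hearts with the most Fos had the least Per1. Btg2, an antiproliferative gene, had 29.2, 22.2, 9.07, 14.2 and 24.1 FPKM in A-PDK1KO replicates 1 to 5, against 10.2 to 15.1 FPKM in control hearts (adjusted p = 0.322). It was highest in A-PDK1KO replicate 1 and lowest in replicate 3, the heart with the least Fos. For Ccn1, Zfp36l1 and Plk2, 3 of the 43 genes, the 2 highest hearts were A-PDK1KO replicates 1 and 2, against 2.87% of all genes tested.

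Upstream regulators of the set, listed as kinases and as SRF and CREB partners, had 0 of 26 called (2 higher and 1 lower at an unadjusted p under 0.05, limma, median log2 fold change 0.023). Of all 9987 genes tested, 2.08% were called, and 852 were higher and 702 lower at an unadjusted p under 0.05. In lists as small as those of this paragraph, 0 calls do not differ from that share. Srf, Mapk3 (the kinase ERK1) and Map2k3 were the most abundant, with Srf at 20.6 to 25.2 FPKM in A-PDK1KO hearts and 22.2 to 34.8 FPKM in control hearts. Of 7 other MAP kinase phosphatases tested 0 were called and 3 were lower at an unadjusted p under 0.05. These 3 were Dusp6, Dusp7 and Dusp16, named after their values were seen, and all had groups that did not overlap, against 4.96% of all genes. Dusp7, which acts on ERK, was at 10.5 to 12.2 FPKM in A-PDK1KO hearts and 12.4 to 17.4 FPKM in control hearts (log2 fold change -0.30, limma adjusted p = 0.103). Among 16 leucine zipper genes that can pair with AP-1 proteins 0 were called (1 higher and 1 lower at an unadjusted p under 0.05, median -0.052), and the most abundant were Nfe2l1, Cebpb and Atf4.

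Heat shock genes are a second group known to respond to stress. Of 10 tested, Hspb1 fell and 0 rose, and all 10 had a log2 fold change below 0 (median -0.39), with 6 lower at an unadjusted p under 0.05. Of all 9987 genes tested, 87 were called lower and 702 were lower at an unadjusted p under 0.05. Hspb1, a small heat shock protein, had 210.2, 198, 229, 279.9 and 219 FPKM in A-PDK1KO replicates 1 to 5, against 306, 313, 419, 294 and 304 FPKM in control replicates 1 to 5 (log2 fold change -0.52, limma adjusted p = 0.0325). The call was lost in 8 of 10 fits that left out 1 heart, with an adjusted p of up to 0.0839 without A-PDK1KO replicate 5, and with median-of-ratios (0.0550), quantile (0.0582) and TPM scaling (0.0583). Of 11 hypoxia-responsive genes tested 0 were called (1 lower at an unadjusted p under 0.05, median -0.021), with Ldha at 146 to 168 FPKM in A-PDK1KO hearts and 127 to 168 FPKM in control hearts, and Bnip3 and Egln1 next in level.

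The tested genes whose pattern over the 10 hearts was most like the mean standardised level of the 9 members were Zfp790, Ano6, Arap3, Gpatch11, Pphln1, Stoml1, Oxsm and Dnmt1 (r of 0.89 to 0.95 over 10 hearts, the highest of 9978 genes searched). Zfp790 had 2.42, 3.06, 1.56, 2.11 and 2.11 FPKM in A-PDK1KO replicates 1 to 5, against 1.74 to 2.32 FPKM in control hearts. Arap3, Gpatch11, Pphln1, Stoml1 and Oxsm were highest in A-PDK1KO replicate 2 and control replicate 4. These 2 hearts had the most genes at 1 FPKM (10723 and 10214) and the smallest share of mitochondrially encoded reads (34.3% and 32.7%). The part of this in the likeness was not tested. The mean level also includes Atf3 and Jund, which ran opposite to Fos.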

How the data were processed

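The 5 A-PDK1KO and 5 control hearts were grouped by their titles. The deposited values are FPKM, computed by the authors; the tools, per the submitters' processing notes, were Trimmomatic 0.38, HISAT2 2.1.0 and featureCounts 1.6.3, on build mm10, with FastQC 0.11.7 for quality, per the labels' protocols. No source used here gives the annotation or the strand setting. Every gene in the table reached 1.00 FPKM in at least 1 heart, and a column of cluster numbers was not used. Whole reads were recovered from FPKM with GENCODE M21 exon lengths for 98.4% of values, within 0.05 of a read.

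The deposited values were converted to log2(FPKM + 1), which understates the change of low genes. Those averaging 1 FPKM or more over the 10 hearts entered limma 3.58.1, under R 4.3.3 (empirical Bayes with trend, two-sided, no covariate). The step was tested on simulated data. No 2 hearts of a group matched within sampling noise. Correlations used 100000 resamples, or all orders below 10 hearts, in Python 3.11.15 with SciPy 1.17.1. The text names the 9 members, up to 4 called genes per list of smallest p (else up to 3 of highest level, as values) and the 8 genes most like the members; predicted genes are left out. Members and lists were chosen with earlier results of these data known. Other settings tried were another pseudocount, other filters and scalings, a replicate block, a Myl7 covariate, voom, and hearts left out.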

Additional observations from a re-analysis of the deposited data

Results flagged for a closer look

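A heart was singled out where it lay far from the other 4 of its group for a gene named here, by Dixon's criterion for 5 samples (a gap of over 0.71 of the range). This was so in 7 of 102 groups examined (51 genes), and chance alone flags about 1 in 20 groups. Klf2, Trib1, Ier5, Dusp6 and Dusp16 were not among the genes examined. The count cannot be set against that rate, since some of the genes were named for their values. Zfp36 was at 4.35 FPKM in control replicate 2, against 6.48 to 7.13 FPKM in the other control hearts. That heart had the most Fos, Egr1 and Dusp1 of the control group. In A-PDK1KO replicate 2, Klf10 was at 4.15 FPKM, where replicates 1, 3, 4 and 5 lay at 1.47 to 1.89 FPKM. In the same heart Socs3 was at 5.36 FPKM (0.830 to 1.73 in the others), Ccl2 at 8.11 FPKM (1.27 to 2.11), Ppp1r15a at 6.95 FPKM (2.37 to 3.29) and Bnip3 at 215 FPKM (127 to 145). Klf10, Socs3, Ccl2 and Ppp1r15a were named after their values were seen. Hspb1 was at 419 FPKM in control replicate 3, against 294 to 313 FPKM in the other control hearts.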

How the results depend on the processing

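Under all 21 other settings 0 immediate early genes were called. Of 187 recomputed log2 fold changes of the 9 genes, 175 kept their direction and 12 changed it. The other filters and the replicate block cannot move a log2 fold change, so the values under them were bound to be among those kept. Without A-PDK1KO replicates 1 and 2, a setting added after seeing the data, the values were -0.26 for Fos, -0.11 for Egr1, -0.097 for Ier2, 0.055 for Atf3 and 0.017 for Jund. Dusp1 was at 0.0082 after quantile normalization, at 0.054 with scaling that leaves out mitochondrial and haemoglobin genes, and at -0.072 to 0.055 with 1 heart left out. The causes were not tested.

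Over all genes there were 208 calls, against 63 on the TPM scale, 390 without mitochondrial and haemoglobin genes in the scaling, 369 with voom on recovered reads, 10 without A-PDK1KO replicates 1 and 2 (3 hearts against 5), and 57 to 150 with 1 heart left out. The count moved by over 1.5 times without A-PDK1KO replicate 1 (106), 3 (62) or 5 (57) and without control replicate 1 (123), 3 (77) or 5 (96). Of the 8 relations to Fos, 6 passed, against 2 by Spearman's rho, 0 without the 2 hearts farthest from the median of Fos (8 hearts) and 2 to 6 with 1 heart left out, the lowest without A-PDK1KO replicate 1 or 2. The sign of r changed for Jund (0.040 without those 2 hearts), for Jun (-0.016 when centred on group means, -0.13 to 0.40 with 1 heart left out) and for Zfp36 (-0.0061 by Spearman's rho, -0.29 to 0.18 with 1 heart left out).

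With the replicate number as a block 153 genes and 0 immediate early genes were called, and Ccn1 and Hspb1 had adjusted p of 0.0976 and 0.0525. Each of these 2 genes lost its call in 13 of 21 settings, and Hbegf in 1. The numbers share no stated origin: deviations of same-numbered hearts correlated at -0.12 to 0.085, and 0 of 5 A-PDK1KO hearts correlated best with their own number. Fos rests on as few as 8 reads per heart. With 5 hearts a group and an SE of 0.46, its log2 fold change of 0.55 was far from a call (limma adjusted p = 0.632). Changes well above 1 SE can thus be missed, and the smallest detectable change was not computed.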

Other observations

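The genes most like Fos alone over the 10 hearts, a search added after seeing the data and given without a test, were Atg14, Car4, Fra10ac1, Pold1, Elk3, Hilpda, Csf1 and Mical1 (r of 0.87 to 0.92 over 10 hearts, of 9978 genes searched). Elk3 is a ternary complex factor that binds with SRF. It had 7.29, 7.83, 5.87, 5.97 and 7.19 FPKM in A-PDK1KO replicates 1 to 5, against 5.68 to 6.44 FPKM in control hearts. Hilpda, a lipid droplet protein induced by hypoxia, had 3.78, 4.37, 1.81, 2.23 and 2.01 FPKM in A-PDK1KO replicates 1 to 5, against 2.65, 3.84, 1.93, 1.22 and 2.45 FPKM in control replicates 1 to 5. Control replicate 2 had the most Fos and the most Hilpda of the control group. Csf1, the macrophage growth factor, had 8.57 and 9.71 FPKM in A-PDK1KO replicates 1 and 2, 4.66 to 6.42 FPKM in replicates 3 to 5 and 4.31 to 6.70 FPKM in control hearts.

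Arc, an immediate early gene best known from neurons, had 2.05, 5.40, 2.01, 1.67 and 2.78 FPKM in A-PDK1KO replicates 1 to 5, against 0.566, 2.36, 0.695, 0.237 and 1.22 FPKM in control replicates 1 to 5 (limma adjusted p = 0.118). It was named after its values were seen, and control replicate 2 lay among the A-PDK1KO hearts.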
